A study of Mus musculus with 8 samples.

Results

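The aryl hydrocarbon receptor (AHR) genes examined here are 7 of the 23420 gene symbols counted in mouse embryonic stem cells (mESCs), namely *Ahr*, *Arnt*, *Ahrr*, *Cyp1a1*, *Cyp1b1*, *Tiparp* and *Aldh3a1*. They were taken by symbol. The set was picked because *Cyp1a1* had a low level in untreated IPO13-/- cells and a much higher one after H2O2, so the values of *Cyp1a1* are given as a description with no test, and the tests below cover the 6 other genes. RNA-seq counts were available for 8 libraries, 2 each of untreated IPO13+/+ cells, IPO13+/+ cells treated with H2O2, untreated IPO13-/- cells and IPO13-/- cells treated with H2O2. Treatment was 125 µM H2O2 for 1 h followed by 2 h of recovery. The cells came from blastocysts of 129 x C57BL/6 background and were grown without feeder cells on gelatin in medium with LIF, the cytokine that keeps mESCs pluripotent. As far as the Methods say, each genotype is a single line, so that a difference between genotypes and a difference between lines cannot be told apart. No source states that the libraries came from separate cultures. The p-values then measure the spread between these libraries, which may be technical.

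AHR is a ligand-activated transcription factor of the bHLH-PAS family. It is held in the cytoplasm by a complex with HSP90, enters the nucleus after ligand binding and pairs there with ARNT. The pair binds xenobiotic response elements, whose core is the letters GCGTG, and switches on a battery of genes that includes the cytochrome P450 enzymes *Cyp1a1* and *Cyp1b1*, the aldehyde dehydrogenase *Aldh3a1*, and the genes of its own inhibitors *Ahrr* and *Tiparp*. AHRR competes with AHR for ARNT, and TIPARP is an ADP-ribosyltransferase that modifies AHR. CYP1A1 also metabolises AHR ligands, so that the battery can limit its own activation.

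The promoters of the 3 genes with the largest values after H2O2 relative to untreated IPO13-/- cells are shown because each holds the GCGTG core. Each sequence is the 250 bases before the RefSeq transcription start (GRCm38.p6), written 5′ to 3′ on the strand of the gene, with the core in capitals, as GCGTG where it lies on the strand of the gene and as CACGC where it lies on the other strand. *Cyp1a1* is at chr9:57697363-57697612 on the plus strand, *Cyp1b1* at chr17:79715062-79715311 on the minus strand and *Ahrr* at chr13:74292332-74292581 on the minus strand. The *Cyp1a1* window lies inside the span given for the gene below, because GENCODE holds a longer gene model that starts upstream.
Cyp1a1: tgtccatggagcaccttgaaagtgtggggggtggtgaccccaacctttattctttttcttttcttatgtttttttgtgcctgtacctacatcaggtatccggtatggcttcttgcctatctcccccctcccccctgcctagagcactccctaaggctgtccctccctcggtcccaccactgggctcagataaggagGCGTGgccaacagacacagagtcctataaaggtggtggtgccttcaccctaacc
Cyp1b1: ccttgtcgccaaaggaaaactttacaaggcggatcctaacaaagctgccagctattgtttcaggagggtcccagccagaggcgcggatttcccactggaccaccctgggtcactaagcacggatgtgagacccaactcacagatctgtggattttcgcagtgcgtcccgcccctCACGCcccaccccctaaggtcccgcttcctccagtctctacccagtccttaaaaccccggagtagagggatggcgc
Ahrr: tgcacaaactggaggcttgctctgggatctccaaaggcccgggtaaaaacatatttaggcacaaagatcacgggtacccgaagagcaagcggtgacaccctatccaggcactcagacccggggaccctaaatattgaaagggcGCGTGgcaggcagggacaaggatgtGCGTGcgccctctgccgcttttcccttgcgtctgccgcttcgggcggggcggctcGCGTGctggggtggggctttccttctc

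The *Cyp1a1* window held 1 core, whose first base lay 54 bases before the start, and the *Cyp1b1* window held 1 on the other strand, 76 bases before the start. The *Ahrr* window held 3, which began 107, 82 and 27 bases before the start, and 1 of them matched the longer letters TNGCGTG, which contain the core. The windows of *Tiparp* (1 core, 170 bases before the start, on the other strand) and *Arnt* (1 core, 29 bases before the start) are not printed. The windows of *Cyp1a2* and *Nqo1*, AHR target genes described below, held no core. No window was available for *Ahr* and *Aldh3a1*. Of all 32851 promoter windows of this length, 28.2% held GCGTG on either strand, 8.63% held 2 or more, and 4.1% held TNGCGTG. A single core is therefore a common feature of these windows. The well-studied cluster of response elements of *Cyp1a1* lies farther upstream than the window shown. A match is a run of letters and no measurement of binding.

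The libraries held between 60397877 and 73789079 counts on genes. Expression is given as CPM, the counts scaled to library totals adjusted by TMM factors, with the SD over 2 libraries. At these depths 3 counts, taken as the smallest number told from 0, correspond to 0.0407 to 0.0497 CPM, for counting error only. The lowest count of any of the 7 genes in any library was 73. *Ipo13*, the deleted gene, had 4716 to 4928 counts in the 4 IPO13+/+ libraries and 1555 to 1965 in the 4 IPO13-/- libraries, 2.72-fold lower in untreated cells, and the counts do not show on which exons the remaining reads lie. All 9 pluripotency markers examined were detected. Their summed level was 6756 to 6988 CPM in the IPO13+/+ libraries and 5725 to 6064 CPM in the IPO13-/- libraries. Of 9 fibroblast markers, *Col3a1*, *Lum*, *Postn* and *Fap* had at most 3 counts in every library. The others, *Col1a1*, *Col1a2*, *Thy1*, *Dcn* and *Acta2*, had more in some library, and *Thy1* was the most abundant. The list summed to 6.79 to 9.38 CPM. Trophectoderm markers summed to 56.8 to 69.1 CPM in IPO13+/+ and 78.1 to 98.5 CPM in IPO13-/- libraries. Early mesoderm markers summed to 7.65 to 8.17 CPM in untreated IPO13-/- libraries and to 4.08 to 5.51 CPM in the 6 others. Neural markers summed to 137 to 150 CPM in IPO13+/+ and 158 to 166 CPM in IPO13-/- libraries. Primitive endoderm markers summed to 15.9 to 24.1 CPM in all libraries. A sum can follow its most abundant gene. This was *Dppa5a* for pluripotency, *Tfap2c* for trophectoderm, *Kdr* for early mesoderm, *Tubb3* for neural and *Sox7* for primitive endoderm markers. The replicates of untreated IPO13+/+ cells stood farther apart than those of other groups, with a mean chi-square per gene between the counts of the pair (genes with at least 50 counts over the pair, about 1 where only sampling noise separates them) of 15, against 2.26, 4.58 and 6.59 in treated IPO13+/+, untreated IPO13-/- and treated IPO13-/- cells. Whether these marker levels and spreads bear on the AHR genes was not tested. In bulk RNA, fewer cells that express a gene and less RNA of it per cell cannot be told apart.

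Levels of different genes were compared roughly, per kilobase of all exons that GENCODE gives for a gene. The annotation used for the counting is not given in the sources used here, so these lengths may not be those counted. By this measure *Tiparp* had the highest level of the 7 genes, with group means of 16.2 to 23.0 CPM per kb. *Arnt* had 8.18 to 9.56 CPM per kb. *Ahr* itself was low, at 1.13 to 1.25 CPM per kb in all 4 groups. *Cyp1a1* spanned the widest range, from 0.677 CPM per kb in untreated IPO13-/- cells to 9.45 CPM per kb in treated IPO13-/- cells, so that it lay below *Ahr* in the former and above it in the 3 other groups, and above *Arnt* in treated IPO13-/- cells, where *Arnt* had 8.64 CPM per kb. *Aldh3a1* had 0.90 to 2.89 CPM per kb. *Cyp1b1*, with 0.187 to 0.860 CPM per kb, and *Ahrr*, with 0.124 to 0.363 CPM per kb, were the lowest.

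**Figure D1:**
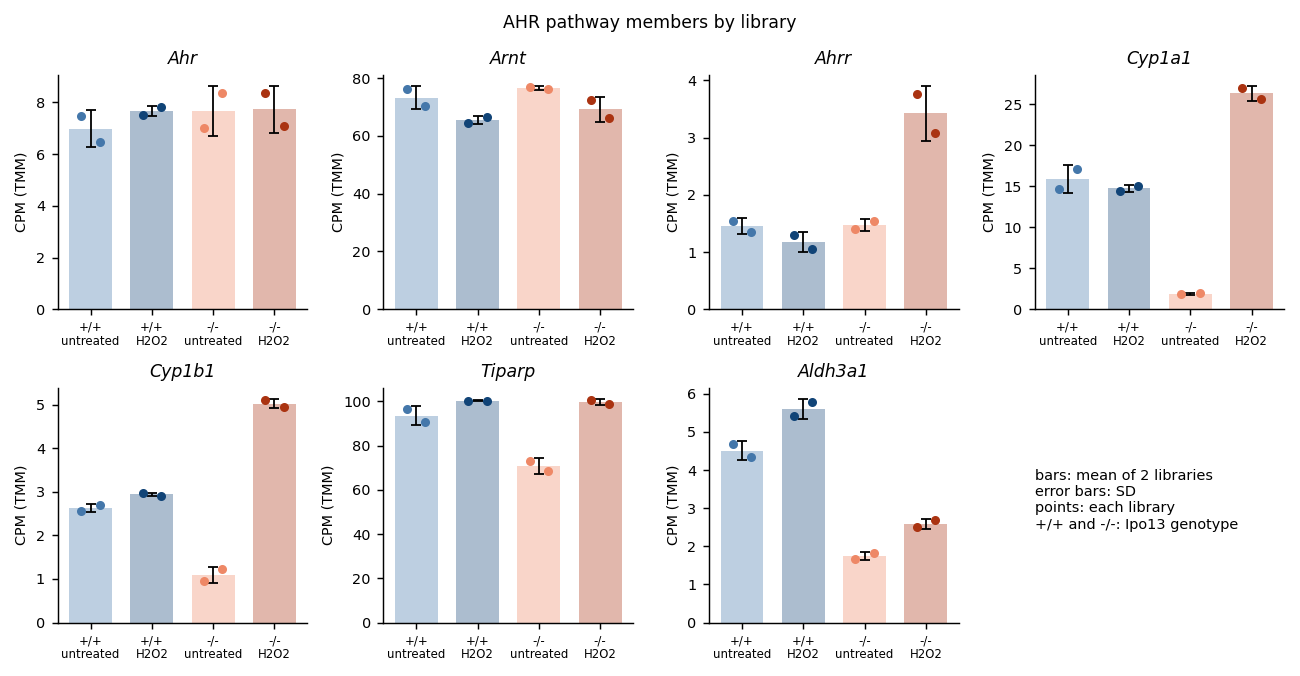
Expression of the 7 AHR genes in CPM after TMM scaling (y axis, from 0, a separate scale for each gene) in the 4 groups (x axis); bars are the mean of 2 libraries, error bars the SD and points the libraries. *Cyp1a1* lies at 1.82 and 1.95 CPM in untreated IPO13-/- cells and at 25.7 and 27.0 CPM after H2O2, while *Ahr* lies between 6.48 and 8.37 CPM in all 8 libraries.

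The receptor and its partner were examined first, since the target genes depend on them. *Ahr* (ENSMUSG00000019256, GRCm38 chr12:35497974-35535038, minus strand) had 7.48 and 6.48 CPM in untreated IPO13+/+ cells, 7.53 and 7.81 CPM after H2O2, 7.0 and 8.36 CPM in untreated IPO13-/- cells, and 8.37 and 7.08 CPM in treated IPO13-/- cells. The groups overlapped except the 2 of IPO13+/+ cells, and none of the comparisons passed the test, with an FDR of 0.29 between the untreated genotypes (log2 fold change 0.13 ± 0.09 SE), 0.32 for stress in IPO13+/+ cells (0.14 ± 0.09) and 0.94 for stress in IPO13-/- cells (0.02 ± 0.09). A difference in *Ahr* mRNA larger than the spread between libraries was thus not detected. The annotation places the non-coding gene *Gm48236* over *Ahr* on the other strand, and whether the counting used strand is not given in the sources used here.

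*Arnt* (ENSMUSG00000015522, chr3:95434388-95497240, plus strand), the gene of the dimerisation partner, had 76.1 and 70.3 CPM in untreated and 64.4 and 66.5 CPM in treated IPO13+/+ cells. In IPO13-/- cells it had 77.0 and 76.1 CPM without treatment and 72.3 and 66.1 CPM after H2O2. Both treated groups lay below their untreated groups. *Arnt* fell by 0.16 ± 0.05 on the log2 scale with H2O2 in IPO13+/+ cells (FDR = 0.015) and by 0.15 ± 0.05 in IPO13-/- cells (FDR = 0.025). Its genotype comparisons did not pass, with an FDR of 0.35 in untreated and 0.24 in treated cells. The processed pseudogene *Gm42672* is annotated over *Arnt* on the same strand. Neither stress call was firm. The one in IPO13+/+ cells was lost in 8 of 16 alternatives, over which the FDR ranged from 0.0012 to 0.18, among them those without untreated IPO13+/+ replicate 1 (0.15), without treated IPO13+/+ replicate 1 (0.18) or 2 (0.058) and without untreated IPO13-/- replicate 1 or 2 (0.10 each). The one in IPO13-/- cells was lost without untreated IPO13-/- replicate 1 (FDR = 0.22), without untreated replicate 2 (0.18) and without treated replicate 2 (0.49), and ranged from 0.0034 to 0.49 over 16 alternatives.

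Of the target genes, *Cyp1a1* (ENSMUSG00000032315, chr9:57687928-57703824, plus strand) showed the pattern for which the set was picked. It was counted 982 and 1198 times in untreated IPO13+/+ cells, 980 and 1040 times in treated IPO13+/+ cells, 138 and 121 times in untreated IPO13-/- cells, and 1747 and 1588 times in treated IPO13-/- cells. These counts correspond to 15.9 ± 1.74, 14.7 ± 0.455, 1.89 ± 0.0897 and 26.3 ± 0.926 CPM (SD, n = 2). The untreated IPO13-/- libraries were the lowest and the treated IPO13-/- libraries the highest of all 8, and the 2 groups of IPO13+/+ cells overlapped. Between the untreated genotypes *Cyp1a1* was 8.44-fold lower in IPO13-/- cells (log2 fold change -3.08 ± 0.09 SE). With H2O2 it was 14.0-fold higher in IPO13-/- cells (3.81 ± 0.09) and differed by -0.11 ± 0.07 in IPO13+/+ cells (0.01 without untreated IPO13+/+ replicate 2). After H2O2 it stood 1.79-fold above the treated IPO13+/+ level (0.84 ± 0.06). The difference between the stress responses of the genotypes was 3.92 ± 0.12 on the log2 scale. These values carry no test, because they are what the set was chosen on.

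*Cyp1b1* (ENSMUSG00000024087, chr17:79701537-79715061, minus strand) encodes a related P450 enzyme that oxidises oestrogens and polycyclic hydrocarbons. It was counted 172 and 189 times in untreated and 202 and 201 times in treated IPO13+/+ cells, and 73 and 76 times in untreated and 330 and 306 times in treated IPO13-/- cells. The order of the libraries at the extremes was that of *Cyp1a1*, with untreated IPO13-/- cells lowest and treated IPO13-/- cells highest and no overlap between them and any other group. In untreated cells *Cyp1b1* was 2.43-fold lower in IPO13-/- than in IPO13+/+ cells (log2 fold change -1.28 ± 0.13, FDR = 1e-08). With H2O2 it rose 4.63-fold in IPO13-/- cells (2.21 ± 0.12, FDR = 2.3e-14), while in IPO13+/+ cells the difference of 0.16 ± 0.11 did not pass (FDR = 0.33). The treated IPO13-/- level was 1.71-fold above the treated IPO13+/+ level (0.77 ± 0.10, FDR = 2.8e-07). Mean levels in the 4 groups were 2.63 ± 0.0950 CPM, 2.94 ± 0.0430 CPM, 1.09 ± 0.184 CPM and 5.02 ± 0.106 CPM (SD, n = 2), in the order untreated and treated IPO13+/+, untreated and treated IPO13-/-.

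The aldehyde dehydrogenase gene *Aldh3a1* (ENSMUSG00000019102, chr11:61207537-61218421, plus strand) had another order. Its counts were 314 and 304 without and 369 and 400 with H2O2 in IPO13+/+ cells, against 127 and 113 without and 162 and 166 with H2O2 in IPO13-/- cells. All 4 IPO13-/- libraries thus lay below all 4 IPO13+/+ libraries, treated or not. *Aldh3a1* was 2.59-fold lower in untreated IPO13-/- cells (log2 fold change -1.37 ± 0.11, FDR = 4.5e-11) and remained 2.16-fold lower after H2O2 (-1.11 ± 0.10, FDR = 4.1e-10). Stress raised it in IPO13-/- cells by 0.57 ± 0.12 (FDR = 0.00051) and in IPO13+/+ cells by 0.31 ± 0.09 (FDR = 0.0067) on the log2 scale. The IPO13+/+ call was lost without untreated replicate 2 (FDR = 0.063), without treated replicate 2 (0.10) and with DESeq2 (0.09), in a range of 0.0025 to 0.10 over 16 alternatives. A difference between the 2 stress responses was not detected (0.26 ± 0.15, FDR = 0.44).

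The genes of the 2 inhibitors had different orders of the groups. *Ahrr* (ENSMUSG00000021575, chr13:74211118-74292331, minus strand) was counted 104 and 95 times in untreated and 88 and 73 times in treated IPO13+/+ cells, and 106 and 96 times in untreated and 244 and 191 times in treated IPO13-/- cells. Only the treated IPO13-/- libraries stood apart upwards, at 3.77 and 3.09 CPM against 1.06 to 1.55 CPM in the 6 others. The untreated genotypes overlapped (log2 fold change 0.02 ± 0.15, FDR = 0.99). With H2O2 *Ahrr* rose 2.34-fold in IPO13-/- cells (1.23 ± 0.13, FDR = 2.2e-08) and differed by -0.31 ± 0.16 in IPO13+/+ cells, which did not pass (FDR = 0.18). In treated cells it was 2.92-fold higher in IPO13-/- than in IPO13+/+ cells (1.55 ± 0.14, FDR = 5.7e-10). *Ahrr* thus had its highest level in treated IPO13-/- cells, as *Cyp1a1* and *Cyp1b1* did, but a low level in untreated IPO13-/- cells was not detected.

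*Tiparp* (ENSMUSG00000034640, chr3:65528410-65555518, plus strand) was the most abundant of the targets. It had 96.6 and 90.6 CPM in untreated and 100.4 and 100.3 CPM in treated IPO13+/+ cells, and 73.2 and 68.3 CPM in untreated and 100.7 and 98.9 CPM in treated IPO13-/- cells. The untreated IPO13-/- libraries were again the lowest, whereas the treated libraries of the genotypes overlapped. *Tiparp* was 1.32-fold lower in untreated IPO13-/- cells (log2 fold change -0.40 ± 0.05, FDR = 5.6e-08) and rose 1.41-fold with H2O2 in these cells (0.50 ± 0.05, FDR = 1.7e-09). In IPO13+/+ cells the stress difference was 0.10 ± 0.05 (FDR = 0.11), which passed in 4 of 16 alternatives (FDR from 0.02 to 0.49), among them the one without untreated IPO13+/+ replicate 1 (0.02). After H2O2 the genotypes differed by -0.01 ± 0.05 (FDR = 0.95). The transcribed pseudogene *4931440P22Rik* overlaps *Tiparp* on the other strand, and reads of the overlap cannot be told apart without strand.

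**Figure D2:**
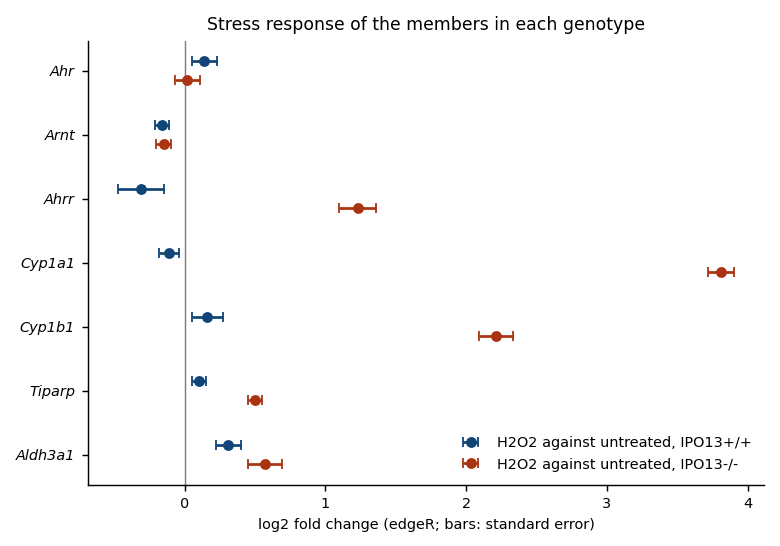
Log2 fold change of each AHR gene after H2O2 (x axis) in IPO13+/+ (blue) and IPO13-/- cells (red), genes on the y axis, with bars of 1 standard error. In IPO13+/+ cells the values lie between -0.31 (*Ahrr*) and 0.31 (*Aldh3a1*), and in IPO13-/- cells between -0.15 (*Arnt*) and 3.81 (*Cyp1a1*).

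Counted over the 6 tested genes, 3 were lower in untreated IPO13-/- than in untreated IPO13+/+ cells at an FDR below 0.05, *Cyp1b1*, *Tiparp* and *Aldh3a1*, where 38.2% of all 19424 genes tested passed and 19.4% were lower. At the threshold of the study, which adds a 2-fold change, 2 were lower, against 1.84% of all genes. Stress in IPO13+/+ cells gave 1 higher (*Aldh3a1*) and 1 lower gene (*Arnt*), with 11.5% of all genes called higher and 13.8% lower, neither of them by 2-fold, against 2.9% of all genes. Stress in IPO13-/- cells gave 4 higher (*Ahrr*, *Cyp1b1*, *Tiparp* and *Aldh3a1*) and 1 lower gene (*Arnt*), with 14.9% of all genes called higher and 14.4% lower. At 2-fold, *Ahrr* and *Cyp1b1* were higher, against 2.52% of all genes. In treated cells, 2 of the 6 were higher in IPO13-/- cells (*Ahrr* and *Cyp1b1*) and 1 was lower (*Aldh3a1*), against 19.1% and 17.5% of all genes. At 2-fold *Ahrr* was higher, against 2.58% of all genes, and *Aldh3a1* lower, against 1.98%. The median log2 fold change of the 6 genes was -0.19 between untreated genotypes, 0.12 and 0.53 for stress in IPO13+/+ and IPO13-/- cells, and 0.05 between treated genotypes, where the median of all genes was 0.0 each time. The comparisons of IPO13-/- cells share their untreated libraries, and with so few genes, chosen with these data in view, the counts describe the set and are no evidence on it.

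**Figure D3:**
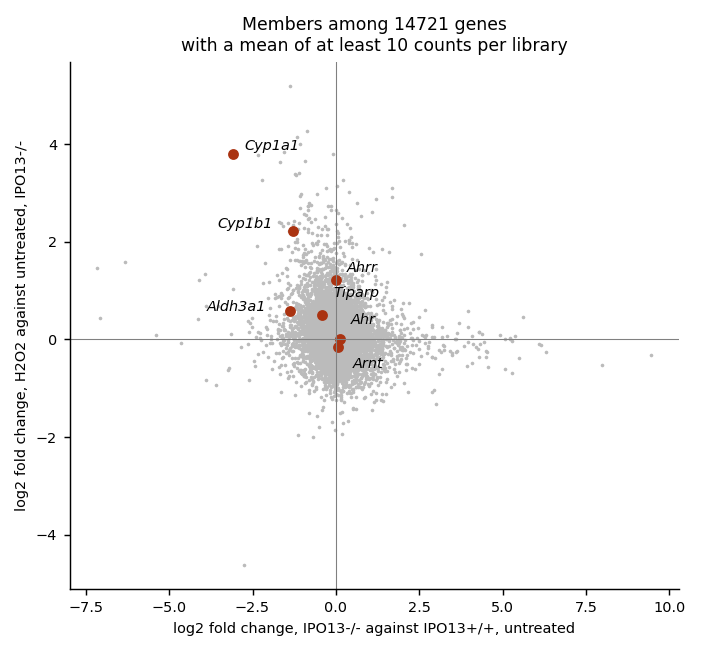
Log2 fold change of IPO13-/- against IPO13+/+ cells without treatment (x axis) and of H2O2 against no treatment in IPO13-/- cells (y axis) for 14721 genes with a mean of at least 10 counts per library (grey) and the 7 AHR genes (red). *Cyp1a1* lies at -3.08 and 3.81 and *Cyp1b1* at -1.28 and 2.21, and the axes share the untreated IPO13-/- libraries.

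The stress responses of the genotypes were then compared with each other in the interaction term. The response of IPO13-/- cells exceeded that of IPO13+/+ cells by 2.05 ± 0.16 for *Cyp1b1* (FDR = 1e-08), by 1.53 ± 0.21 for *Ahrr* (FDR = 4.3e-05) and by 0.39 ± 0.06 for *Tiparp* (FDR = 0.00044) on the log2 scale. These are 3 of the 6 genes, while 2.71% of all genes passed this test and 2.01% did so in this direction. At 2-fold, *Cyp1b1* and *Ahrr* passed, against 0.0772% of all genes. The FDR stayed below 0.05 in 15 of 15 alternatives for *Cyp1b1* (up to 0.00067) and *Ahrr* (up to 0.031), and in 14 of 15 for *Tiparp*, which had an FDR of 0.051 without untreated IPO13-/- replicate 2 (range 1.1e-07 to 0.051). *Ahr* (-0.12 ± 0.13, FDR = 0.75) and *Arnt* (0.02 ± 0.07, FDR = 1.0) did not pass.

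The other genes of the pathway were taken from lists of 66 genes, of which 64 were tested and *Cyb5a* was not analysed here. In untreated cells 9 were higher and 11 lower in IPO13-/- cells, where 18.7% of all genes were higher and 19.4% lower. Stress gave 11 higher and 8 lower genes in IPO13+/+ cells, beside 11.5% and 13.8% of all genes, and 14 higher and 7 lower genes in IPO13-/- cells, beside 14.9% and 14.4%. In treated cells 9 were higher and 8 lower in IPO13-/- than in IPO13+/+ cells, beside 19.1% and 17.5%. The interaction passed for 4 higher genes and 1 lower gene, beside 2.01% and 0.705% of all genes. These were *Hmox1*, described with the haem genes, and, named after their values were seen, *Nfe2l2* (0.25, FDR = 0.036), *Socs2* (0.23, FDR = 0.037), *Ncoa3* (0.22, FDR = 0.044) and *Arntl2* (-0.59, FDR = 0.04). None of these interaction calls was examined over the alternatives. The medians of the 64 genes lay between -0.04 and 0.05 in the comparisons, beside medians of all genes from 0.0 to 0.02.

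The 7 listed genes that hold or degrade the receptor had small differences, of at most 0.26 in either direction on the log2 scale (*Src*, treated IPO13-/- against treated IPO13+/+ cells, FDR = 1.5e-05). In untreated IPO13-/- cells 1 was higher and 1 lower, beside 18.7% and 19.4% of all genes. *Src* was singled out after its values were seen. It lies on chromosome 2, where the median log2 fold change of expressed genes was 0.27 between untreated and 0.30 between treated genotypes. Among the 8 coactivators, *Rb1*, the retinoblastoma protein that can bind AHR, rose with H2O2 in both genotypes, by 1.11 in IPO13+/+ cells (FDR = 5e-14) and by 1.03 in IPO13-/- cells (FDR = 2.8e-13).

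Of the 13 bHLH-PAS relatives, 2 were higher and 3 lower in untreated IPO13-/- cells, beside 18.7% and 19.4% of all genes. Stress gave 1 higher and 2 lower in IPO13+/+ cells, beside 11.5% and 13.8%. In IPO13-/- cells it gave 2 higher and 3 lower, beside 14.9% and 14.4%. The 1 gene of this list past 2-fold was *Npas1*, a neuronal member, with 14 and 6 counts without and 22 and 17 with H2O2 in IPO13-/- cells (1.08, FDR = 0.045). The counts did not overlap but are few, and the call was lost in 7 of 16 alternatives (FDR 0.031 to 0.24). It was lost without treated IPO13+/+ replicate 1 (0.057) or 2 (0.056), without untreated IPO13-/- replicate 2 (0.24) and without treated IPO13-/- replicate 1 (0.22) or 2 (0.075). Of the 8 enzymes that make tryptophan-derived AHR ligands or compete for tryptophan, 2 reached 10 counts in both replicates of any group. The lowest FDR of the list over all comparisons was 0.061, that of *Ido1* between untreated genotypes, with 6 and 13 counts in IPO13+/+ and 4 and 2 counts in IPO13-/- cells.

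Among the other genes that AHR is known to induce, 16 were tested. In untreated IPO13-/- cells 1 of them was higher and 4 lower, beside 18.7% and 19.4% of all genes. Stress gave 4 higher and 2 lower in IPO13+/+ cells, beside 11.5% and 13.8%. In IPO13-/- cells it gave 5 higher and 2 lower, beside 14.9% and 14.4%. *Nqo1*, a quinone reductase also under NRF2 control, had 4908 and 5485 counts without and 5633 and 5986 with H2O2 in IPO13+/+ cells, and 3313 and 2881 without and 3699 and 3709 with H2O2 in IPO13-/- cells. As with *Aldh3a1*, every IPO13-/- library lay below every IPO13+/+ library, by 0.75 on the log2 scale in untreated cells (FDR = 1.5e-12) and by 0.53 in treated cells (FDR = 9.5e-10). *Nqo1* was chosen for description after its values were seen. With H2O2 it rose by 0.16 in IPO13+/+ (FDR = 0.012) and by 0.38 in IPO13-/- cells (FDR = 9.1e-07). A difference between these responses was not detected (0.22, FDR = 0.093). *Cyp2s1*, a P450 gene, moved the other way under stress, from 2963 and 3424 to 1503 and 1469 counts in IPO13+/+ cells and from 3263 and 2403 to 1187 and 1243 counts in IPO13-/- cells. It fell by 1.10 (FDR = 4.8e-14) and 1.09 (FDR = 8.9e-14) on the log2 scale. *Ereg*, a growth factor gene, had 2 to 22 counts in all libraries, with 1.61 for stress in IPO13+/+ cells (FDR = 0.027) and -1.37 between treated genotypes (FDR = 0.042), calls that were lost in 6 and 7 of 16 alternatives (FDR 0.019 to 0.34 and 0.025 to 0.41). Both were lost without treated IPO13+/+ replicate 2 (FDR of 0.34 and 0.41) and without untreated IPO13-/- replicate 1 or 2 (0.057 and 0.072 each time), the former also without untreated IPO13+/+ replicate 2 (0.17) and the latter without treated IPO13-/- replicate 2 (0.33).

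Of the 6 factors that bind the proximal *Cyp1a1* promoter, 2 were higher in untreated IPO13-/- cells, beside 18.7% of all genes. *Nfix*, a nuclear factor I gene, had 18 and 15 counts in untreated IPO13+/+ and 42 and 45 in untreated IPO13-/- cells (log2 fold change 1.39, FDR = 0.00025). *Nfia* had 3 and 5 counts without and 12 and 18 with H2O2 in IPO13+/+ cells (1.87, FDR = 0.012), a call that was lost in 3 of 16 alternatives (FDR 0.0084 to 0.15), among them those without untreated IPO13+/+ replicate 1 (0.08) and without treated replicate 2 (0.15). Of the genes for electron and haem supply to P450 enzymes, *Hmox1*, the haem-degrading enzyme, had 14900 and 15565 counts without and 22519 and 22627 with H2O2 in IPO13+/+ cells, and 9136 and 7754 without and 16208 and 15324 with H2O2 in IPO13-/- cells. It was lower in IPO13-/- cells before treatment (-0.86, FDR = 7.5e-16) and rose with stress by 0.57 in IPO13+/+ (FDR = 4.3e-12) and by 1.02 in IPO13-/- cells (FDR = 2.1e-17). The interaction was 0.45 (FDR = 9.6e-06).

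Of 22 genes whose annotated body lay within 250 kb of that of *Cyp1a1*, 17 were tested. Distances given for single genes are between GENCODE gene starts, which puts *Sema7a* at 252.2 kb. For *Cyp1a1* the start used is that of the longer gene model, which lies upstream of the RefSeq start. In untreated cells 4 were higher and 5 lower in IPO13-/- cells, beside 18.7% and 19.4% of all genes, and with stress in IPO13-/- cells 4 were higher and 1 lower, beside 14.9% and 14.4%. *Csk*, a tyrosine kinase gene whose start lies at -34.3 kb, differed by -0.06 ± 0.05 between the untreated genotypes and by 0.03 ± 0.05 with stress in IPO13-/- cells. *Edc3*, an mRNA decapping gene at 20.6 kb, differed by -0.07 ± 0.04 and -0.02 ± 0.04. None of these 4 values passed (FDR of 0.36, 0.70, 0.21 and 0.81). The largest differences between untreated genotypes among well-counted neighbours were those of *Sema7a* (0.44 ± 0.06, FDR = 1.5e-06), *Rpp25* (-0.40 ± 0.04, FDR = 6.3e-09) and *Clk3* (-0.35 ± 0.05, FDR = 4.2e-07). *Clk3* had the signs of *Cyp1a1* with both comparisons called, with 0.27 ± 0.05 for stress in IPO13-/- cells (FDR = 4e-05), as did *Scamp2* with -0.23 ± 0.05 (FDR = 0.00083) and 0.14 ± 0.05 (FDR = 0.049). *Rpp25*, *Cox5a*, *Mpi* and *Csk* had these signs without a call in both. The largest stress differences in IPO13-/- cells among well-counted neighbours were those of *Fam219b* (0.47 ± 0.06, FDR = 1.4e-06) and *Arid3b* (-0.30 ± 0.05, FDR = 1.6e-05). *Fam219b* also rose in IPO13+/+ cells (0.66 ± 0.06, FDR = 3.9e-09). *Cyp1a2*, the paralogue, starts 4.2 kb from the GENCODE start of *Cyp1a1*. *Cyp1a2* had 1 and 1, 3 and 0, 10 and 5, and 2 and 7 counts in the 4 groups, in the order untreated and treated IPO13+/+, untreated and treated IPO13-/-. Its difference between the untreated genotypes (2.75 ± 1.03, FDR = 0.036) rests on at most 10 counts and had the opposite sign to that of *Cyp1a1*. Medians of the log2 fold change between untreated genotypes over the chromosomes that carry the 7 genes lay between -0.04 and -0.01.

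**Figure D4:**
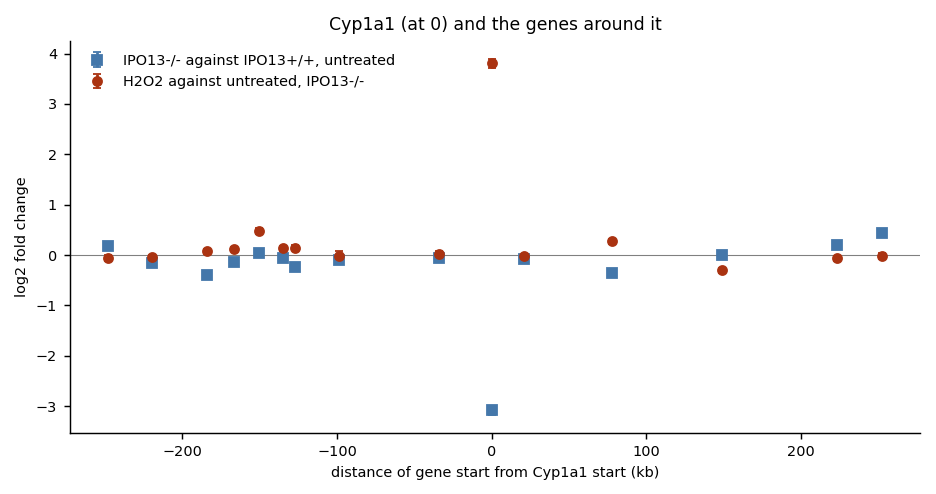
Log2 fold change between untreated genotypes (squares) and with H2O2 in IPO13-/- cells (circles), with bars of 1 standard error, for *Cyp1a1* and 14 genes around it with a mean of at least 10 counts, against the distance between GENCODE gene starts in kb. *Cyp1a1* lies at -3.08 and 3.81, and the 14 neighbours between -0.40 and 0.47.

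The genes whose levels followed *Cyp1a1* most closely over the 8 libraries were sought among 12198 genes with a mean of at least 1 CPM, by Pearson's r of log2 CPM. The first 5 were *Sc4mol*, a sterol oxidase gene (r = 0.978), *Ctsl*, a lysosomal protease gene (0.977), *Nptx2*, a pentraxin gene (0.975), *Usf2*, a transcription factor gene (0.975), and *N4bp3* (0.975). Of the AHR genes, *Cyp1b1* ranked 10 (r = 0.964, Spearman's rho = 0.833) and *Tiparp* 25 (0.951, rho = 0.619). *Aldh3a1* (0.63, rho = 0.238), *Ahrr* (0.412, rho = 0.429), *Ahr* (-0.098, rho = 0.143) and *Arnt* (-0.633, rho = -0.429) ranked far lower. The libraries form 4 groups of 2 and are shared by all genes, 124 genes reached an r of 0.9, and none of the first 5 by Pearson was among the first 7 by Spearman. The measure does not cover the size of a difference. *Usf2*, for instance, differed by -0.21 between untreated genotypes and by 0.26 with stress in IPO13-/- cells.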

How the data were processed

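The 8 RNA-seq libraries, from mESCs of either genotype with and without H2O2, were placed by their labels in 4 groups of 2. The authors mapped the reads to mm10 and deposited, for each library, raw counts on 23420 gene symbols. The authors also deposited CPM, each count divided by the library total, which were compared with the CPM used here. The submitters' processing notes name STAR 2.3.1, HTSeq and limma. The gene annotation and the strand setting of the counting are not given in the sources used here.

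Genes with a count of 1 or more in some library (19424) entered edgeR 4.0.16 (R 4.3.3), with TMM factors and quasi-likelihood F-tests in a single model of all 8 libraries that had 1 coefficient per group. FDR values are Benjamini-Hochberg adjusted over all these genes, and SE was obtained by dividing the size of the log2 fold change by the root of F. Genes were called at an FDR below 0.05, and in addition at 2-fold as in the study. Exact permutation of 2 against 2 libraries cannot go below p = 0.333 and was not used. The genes examined and the pathway and marker lists were chosen with earlier results of these data known. The genes named are the 7 AHR genes, *Ipo13*, pathway genes past both thresholds that reached 10 counts in both replicates of some group, genes within 250 kb of *Cyp1a1*, and the 5 genes most like it, with exceptions stated in the text.

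The alternatives were scaling by relative log expression or by library totals alone, filterByExpr (15191 genes), no filter, limma-voom (limma 3.58.1), DESeq2 1.42.0, the replicate number as a block, only the groups compared, and each library left out, where the lone library of a group is assumed to vary like the others. On simulated data for stress in IPO13-/- cells (19096 genes), 100 of 100 genes changed by 1.5 on the log2 scale and 93 of 100 changed by 0.6 were recovered, with 23 calls among unchanged genes. For the interaction 100 of 100 and 85 of 100 were recovered, with 12 calls among unchanged genes. All changed genes had a mean of at least 1 CPM. The simulation gave each gene the same spread in all groups, whereas the replicates here differed in spread between groups. Coordinates and exon lengths are from GENCODE M21 (GRCm38), and promoters are from RefSeq, which matched 5 of the 7 genes. The values of 1 listed pathway gene are not reported here.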

Additional observations from a re-analysis of the deposited data

Results flagged for a closer look

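Of the AHR genes, 3 were singled out because the difference between the stress responses of the genotypes passed the interaction test. The log2 response to H2O2 of IPO13-/- cells exceeded that of IPO13+/+ cells by 2.05 for *Cyp1b1*, by 1.53 for *Ahrr* and by 0.39 for *Tiparp*. Among the pathway genes named by the rule, the same test passed for *Hmox1*, with a difference of 0.45. It also passed for *Nfe2l2* (0.25), *Socs2* (0.23), *Ncoa3* (0.22) and *Arntl2* (-0.59), which are named after their values were seen. Their FDR lay between 0.036 and 0.044. No interaction call of a pathway gene was examined over the alternatives. With 2 libraries in each group, which library of a pair departs cannot be told.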

How the results depend on the processing

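Over the 7 AHR genes without *Cyp1a1*, 437 of 474 log2 fold changes under alternatives kept their direction and their side of the FDR threshold, 15 lost a call, 5 gained one and 17 changed sign, none of the latter in a called value. The number of called AHR genes for stress in IPO13+/+ cells was 2, and 1 with DESeq2 and with only the groups compared. With each library left out in turn it was 0 to 2, and it was 3 to 3 between untreated genotypes, 4 to 5 for stress in IPO13-/- cells, 3 to 3 between treated genotypes and 2 to 3 in the interaction. Over all genes the corresponding ranges were 5227 to 7284 (7411 with all libraries) between untreated genotypes, 2952 to 4729 (4908) and 3204 to 6455 (5704) for stress in IPO13+/+ and IPO13-/- cells, 5278 to 7753 (7115) between treated genotypes and 73 to 1157 (527) in the interaction. Leaving out any of the 8 libraries moved the interaction count by over 1.5 times, from 73 without untreated IPO13-/- replicate 1 to 1157 without untreated IPO13+/+ replicate 1. The stress counts moved as much without treated IPO13+/+ replicate 1 (2952) or 2 (3135), without untreated IPO13-/- replicate 1 (3204) and without treated IPO13-/- replicate 2 (3788). Stress in IPO13+/+ cells gave 3163 calls with only the groups compared. The interaction gave 349 calls with filterByExpr, 255 with limma-voom and 287 with DESeq2. The sign changed for *Ahrr* between untreated genotypes (-0.08 to 0.11 with libraries left out, -0.05 without untreated IPO13-/- replicate 2), for *Ahr* with stress in IPO13-/- cells (-0.01 with library totals, -0.11 to 0.16 with libraries left out, -0.1 without treated IPO13-/- replicate 1) and for *Ahr* between treated genotypes (-0.003 with relative log expression factors, -0.004 with DESeq2, -0.12 to 0.13 with libraries left out, -0.01 without treated IPO13+/+ replicate 1). It also changed for *Tiparp* between treated genotypes (0.001 with library totals, -0.02 to 0.01 with libraries left out), and in the interaction for *Ahr* (-0.27 to 0.002 with libraries left out) and *Arnt* (-0.06 with library totals, -0.001 with filterByExpr, -0.06 to 0.07 with libraries left out, -0.04 without untreated and -0.01 without treated IPO13+/+ replicate 1). The cause was not tested.

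Library totals without factors moved the share of higher calls from 49.0% to 67.1% between untreated genotypes, from 45.4% to 60.5% for stress in IPO13+/+ cells and from 74% to 30.8% in the interaction. For stress in IPO13+/+ cells it was 56.0% with filterByExpr and 61.1% with only the groups compared. With library totals *Arnt* passed between untreated genotypes (0.14, FDR = 0.019, in a range of 0.019 to 0.97). Levels from the deposited CPM differed from those used here by at most 2.9%. None of the 5 genes most like *Cyp1a1* by Pearson was kept by Spearman.

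The labels number the replicates 1 and 2 in each group. Deviations of same-numbered libraries from their group means correlated between -0.02 and 0.33 over 12198 genes, and the numbers were not taken as pairs. With the replicate block, the interaction gave 1291 calls in place of 527, and the block changed 1 call among the AHR genes, that of *Tiparp* for stress in IPO13+/+ cells (0.10).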

Other observations

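Leaving out *Cyp1a1*, 52 genes (0.268% of those tested) were at least 2-fold lower in untreated IPO13-/- than in untreated IPO13+/+ cells and at least 2-fold higher with H2O2 than without it in IPO13-/- cells, both at an FDR below 0.05. The comparisons share the untreated IPO13-/- libraries, which alone can make genes appear in both. In 3 of the 50 that reached 10 counts in both replicates of some group, both treated IPO13-/- libraries also lay above all 4 IPO13+/+ libraries, and these were *Cyp1b1*, *Bdkrb2* and *Kcna2*, chosen after their values were seen. The test between treated genotypes passed for *Cyp1b1* (0.77, FDR = 2.8e-07). It did not pass for *Bdkrb2* (0.20, FDR = 0.21) or *Kcna2* (0.33, FDR = 0.40). *Bdkrb2*, the bradykinin B2 receptor gene, had 79 and 90 counts without and 132 and 150 with H2O2 in IPO13+/+ cells, and 37 and 25 without and 159 and 141 with H2O2 in IPO13-/- cells. In contrast to *Cyp1a1*, it lay higher in treated than in untreated IPO13+/+ cells (log2 fold change 0.74). *Kcna2*, a potassium channel gene, had 18 and 15, 27 and 28, 6 and 1, and 30 and 34 counts in the same order of groups.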
